A study of Homo sapiens with 2 samples.

Results

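The annexins and the S100 proteins are 2 families of calcium-binding proteins, and their genes were compared between 2 human liver cancer cell lines, SKHEP1 and HepG2. Members were taken by gene symbol: every gene named ANXA or S100A followed by a number, together with S100A7A, S100B, S100G, S100P and S100Z. This gave 32 genes, 12 annexin and 20 S100 genes, of the 57820 genes listed for each line. SKHEP1 is labelled as endothelial cells and HepG2 as hepatocellular carcinoma. Both cultures are labelled WT, received no treatment that the labels name, and were grown in DMEM with fetal bovine serum and penicillin-streptomycin. Poly(A) RNA of each line was sequenced as 1 stranded library. Since each line has 1 library, no difference between the lines could be tested, and intervals given here are exact 95% intervals that cover counting error only. Reads copied by PCR and lacking molecular identifiers do not each stand for a molecule, so these intervals may be too narrow even for that.

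Annexins share a core of repeats that binds negatively charged phospholipids, such as phosphatidylserine, when calcium rises, and they bridge, order and repair membranes. S100 proteins are small proteins with a pair of EF-hand calcium-binding loops that mostly act as dimers. Several bind the N-terminal tail of an annexin, the best known case being the complex of S100A10 with annexin A2 at the plasma membrane. Some S100 proteins are also released and act on cell-surface receptors, and S100A8, S100A9 and S100A12 are abundant in myeloid cells. Most S100A genes lie in a cluster on chromosome 1, next to the genes of the epidermal cornified envelope.

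The SKHEP1 library held 19940557 expected counts, the estimated reads per gene, and the HepG2 library 22477757. Levels are given as counts-per-million (CPM) of the scaled library size when a gene is compared between lines, and as deposited transcripts-per-million (TPM), which allow for gene length, when genes are compared with each other. The floor used for genes at 0 was 3 counts, or 0.148 CPM in SKHEP1 and 0.135 in HepG2. The labelled cell types were compared with marker lists. All 16 hepatocyte markers were at least 4-fold higher in HepG2, and 13 of them were at 0 counts in SKHEP1. Of 20 endothelial markers, 12 were under 10 counts in both lines. Of the 8 others, SKHEP1 led by at least 4-fold for 3 and HepG2 for 3, and 2 differed by less. Among all genes with 10 counts in either line, the shares were 16.5% toward SKHEP1 and 13.0% toward HepG2. ENG had 1926 counts in SKHEP1 and 18 in HepG2, ROBO4 343 and 4, and EGFL7 178 and 5, whereas ESAM, SOX18 and LYVE1 were higher in HepG2. ROBO4, EGFL7 and LYVE1 reached 10 counts in 1 line only, which favours a difference. In SKHEP1 8 markers were at 0 counts, among them the defining genes KDR, ERG and CLDN5, and CDH5, or VE-cadherin, had 1 count. The 20 markers summed to 124 CPM in SKHEP1, of which ENG gave 95.3, and to 13.7 CPM in HepG2.

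Of the 32 members, 20 reached 10 counts in at least 1 line, and 12 did not. Among these 20, SKHEP1 had the higher level by at least 4-fold for 8 and HepG2 for 4, and 8 lay within 4-fold. Of all 15436 genes with 10 counts in either line, 16.5% passed 4-fold toward SKHEP1 and 13.0% toward HepG2. Of 9 annexin genes, 2 passed 4-fold toward SKHEP1 and 1 toward HepG2, or 33.3% in either direction against 29.5% of all genes. Of 11 S100 genes, 6 did so toward SKHEP1 and 3 toward HepG2, or 81.8% in either direction. The median log2 ratio, SKHEP1 over HepG2, was 0.70 for the annexins and 2.04 for the S100 genes, beside 0.03 for all genes. The mean log2 ratio of the S100 genes was only 0.19, since the 3 higher in HepG2 included a pair with very large ratios. ANXA1, ANXA9, S100A1, S100A14 and S100P passed the count minimum through 1 line only, which favours a difference. With a 2-fold limit, 4 annexin and 6 S100 genes were higher in SKHEP1 (25.0% of all genes), and 3 and 4 in HepG2 (23.4%, or 48.4% in either direction). With an 8-fold limit the counts were 2 and 3 toward SKHEP1 (11.5% of all genes) and 1 and 2 toward HepG2 (8.15%, or 19.6% in either). With the lower end of the counting interval past 4-fold they were 2 and 5 toward SKHEP1 (13.1%) and 1 and 2 toward HepG2 (9.89%, or 23.0% in either). Of the 15 members with 10 counts in both lines, SKHEP1 led by at least 4-fold for 7 and HepG2 for none, a minimum chosen after the values were seen. The same limit was passed by 6.31% of all genes in the direction of SKHEP1, by 6.64% in the direction of HepG2 and by 12.9% in either.

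**Figure D1:**
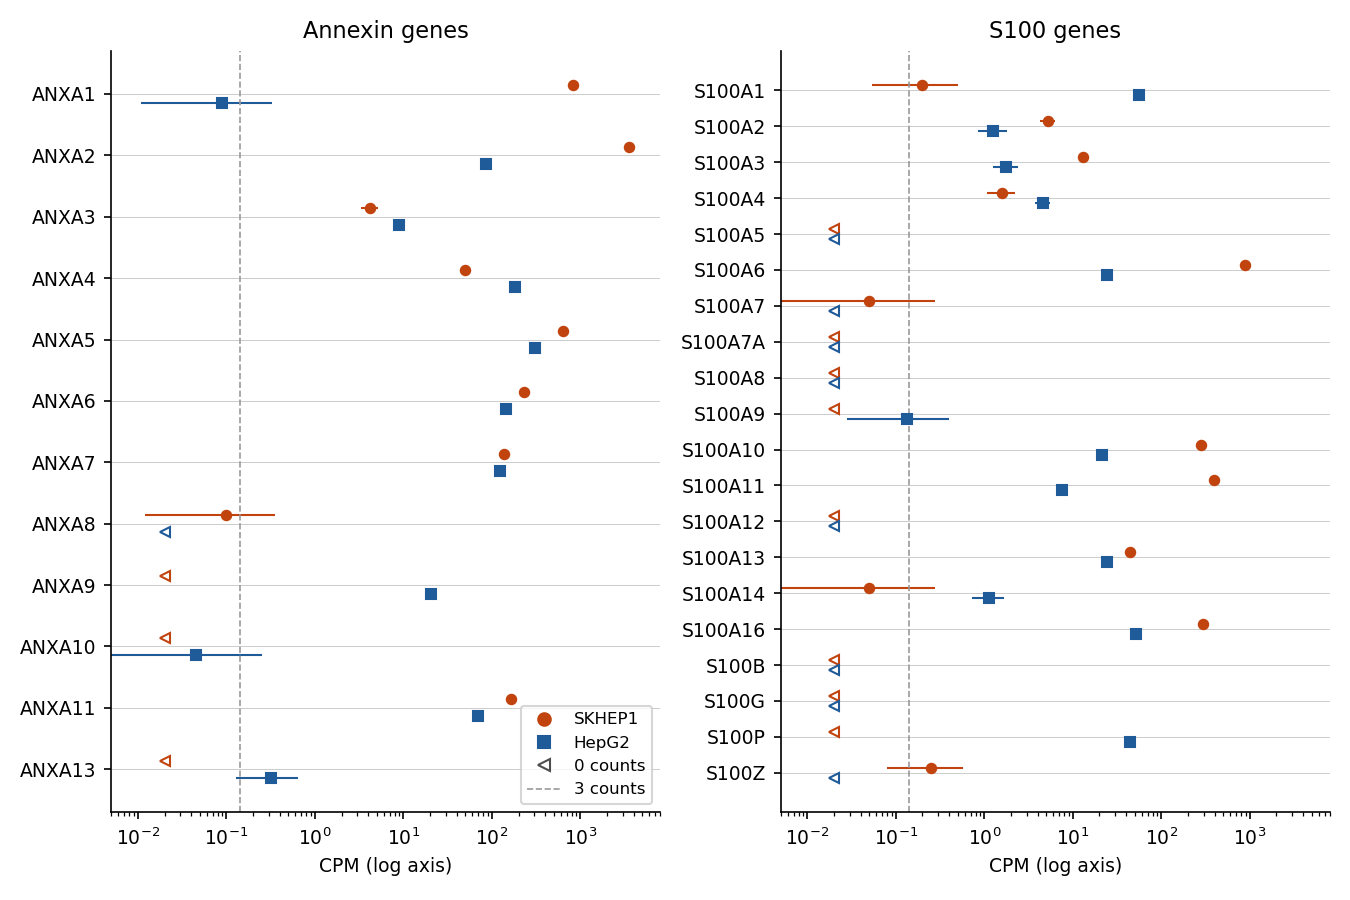
Level of each annexin gene (left) and S100 gene (right) in SKHEP1 (circles) and HepG2 (squares), as CPM on a log axis, 1 library per line. Bars are exact Poisson 95% intervals, open triangles at an arbitrary position mark 0 counts, and the dashed line marks 3 counts. ANXA5, ANXA6 and ANXA7 lie close together in both lines, whereas ANXA1, S100A1 and S100P are abundant in 1 line and at or under 4 counts in the other.

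ANXA2 was the most abundant member of either family in SKHEP1 and was much lower in HepG2. Annexin A2 is a phospholipid- and actin-binding protein of the plasma membrane and endosomes, and a cell-surface docking site for plasminogen and its activator. The gene (ENSG00000182718.12, chromosome 15) had 70863 counts in SKHEP1 and 1922 in HepG2. Its level was 3507 CPM (interval 3481 to 3533) in SKHEP1 and 86.6 CPM (82.8 to 90.6) in HepG2, a 40.5-fold difference (38.7 to 42.4). By TPM it ranked 12 among all listed genes in SKHEP1, at 4658 TPM, and 690 in HepG2, at 212 TPM. The difference was smaller in TPM, 22.0-fold, and the isoform-weighted length of the gene, which enters TPM, also differed between the libraries. That length was 1389 bases in SKHEP1 and 823 bases in HepG2, over the 38 ANXA2 transcripts listed. Among 9196 genes with at least 100 counts in both libraries, 80 (0.870%) had lengths at least 1.5-fold apart, and ANXA2 was the only one of the 11 members among them. The next largest length ratio among these members was 1.04, for ANXA4. ANXA2 has processed pseudogenes whose reads can be mistaken for its own, and ANXA2P2 had 211 counts in SKHEP1 and 9 in HepG2. With the pseudogene counts added, the log2 ratio of ANXA2 was 5.34.

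ANXA1 was close to absent from the HepG2 library. Annexin A1, a phospholipid-binding protein induced by glucocorticoids, is known as a mediator that ends inflammation through formyl peptide receptors. The gene (ENSG00000135046.9, chromosome 9) had 16799 counts in SKHEP1 and 2 in HepG2, or 831 and 0.0902 CPM. The ratio was 9222, with an interval of 2552 to 76154 that reflects the 2 counts in HepG2. It was the largest ratio of any member.

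The other abundant annexins were expressed in both lines within 4-fold. ANXA5, which encodes the phosphatidylserine-binding protein used to stain dying cells, had 12691 counts in SKHEP1 against 6721 in HepG2. At 628 and 303 CPM it was 2.07-fold higher in SKHEP1 (2.01 to 2.14), and it was the most abundant annexin of HepG2. ANXA11, whose protein links RNA granules to lysosomes and which binds S100A6, had 3319 and 1556 counts and was 2.34-fold higher in SKHEP1 (2.20 to 2.49). ANXA6, a double-length annexin of the plasma membrane and late endosomes, had 4701 and 3181 counts and was 1.62-fold higher in SKHEP1 (1.55 to 1.70). ANXA7, an annexin of secretory vesicles, had 2740 and 2737 counts, 136 and 123 CPM, and was the least different member, with a ratio of 1.10 (1.04 to 1.16). For these 4 genes the sequencing depth leaves little counting error, but the spread between cultures is unknown.

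A further group of annexins was higher in HepG2. ANXA4, an annexin of epithelial membranes, had 994 counts in SKHEP1 and 4050 in HepG2, or 49.2 and 183 CPM. Its 3.71-fold difference (3.46 to 3.98) lay just under the 4-fold limit. ANXA4 overlaps the gene AAK1 on the opposite strand in the GENCODE annotation, and AAK1 had 371 and 270 counts, fewer than ANXA4 in either line. ANXA3 had 84 counts in SKHEP1 and 197 in HepG2 and was 2.14-fold higher in HepG2 (1.65 to 2.79), at a level under 10 CPM in both. ANXA9, an annexin whose calcium-binding sites are degenerate, had 0 counts in SKHEP1 and 458 in HepG2, 20.6 CPM. Against the floor of 3 counts it was 139-fold higher in HepG2, which is not a strict lower bound.

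3 annexins were at or near 0 in both lines. ANXA13, an annexin of intestine and kidney epithelium, had 0 counts in SKHEP1 and 7 in HepG2. ANXA10, known from stomach epithelium, had 0 and 1. ANXA8 had 2 and 0 counts, and its near copies ANXA8L1 and ANXA8L2 had 2 counts each in SKHEP1 and 0 in HepG2, so that the reads of this group are uncertain between copies.

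**Figure D2:**
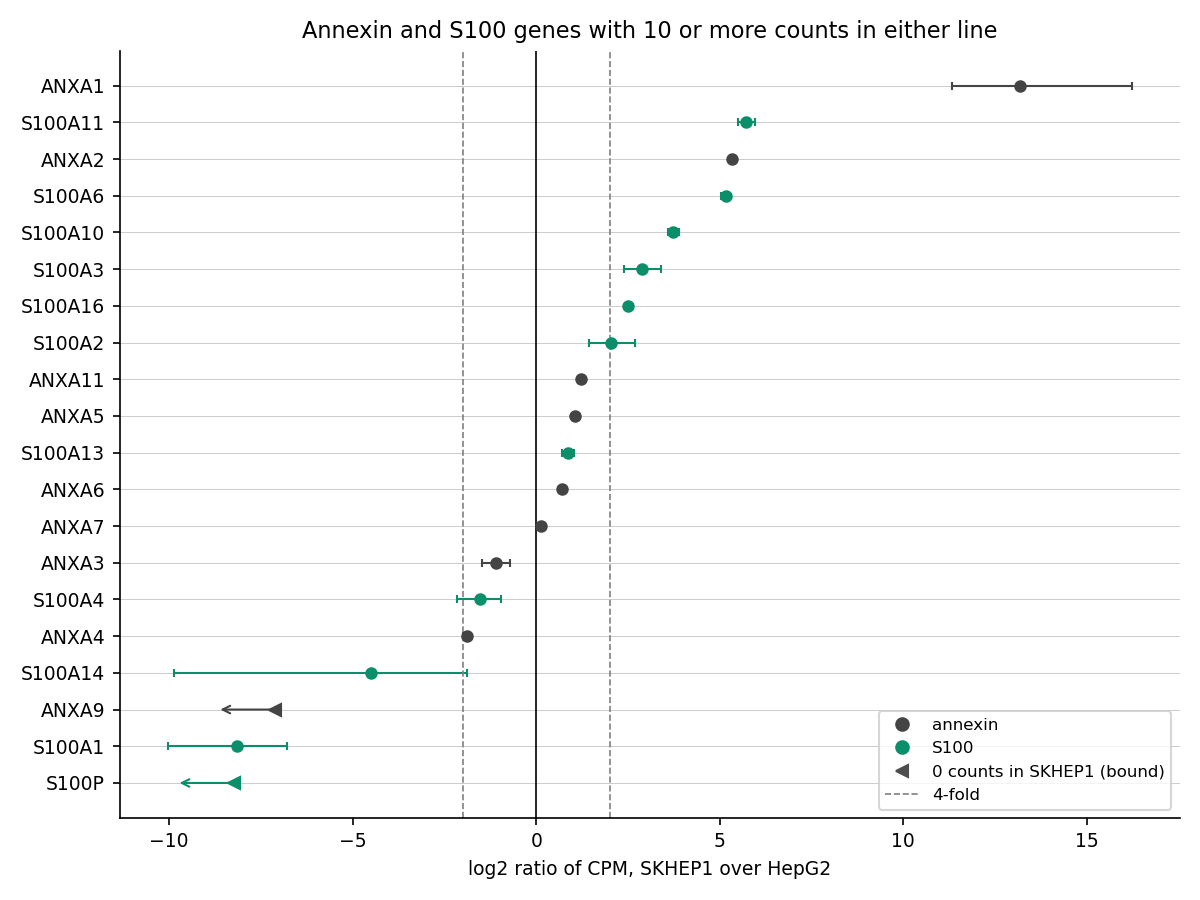
Log2 ratio of CPM, SKHEP1 over HepG2, for the 20 members with 10 or more counts in either line, with annexins in grey and S100 genes in green. Bars are exact 95% counting intervals and dashed lines mark 4-fold. Triangles with arrows, labelled as bounds, are ratios with SKHEP1 set to 3 counts for genes at 0 there, and are not strict bounds. S100A11, ANXA2 and S100A6 sit between 5.16 and 5.72, and S100A1, S100P and ANXA9 lie below -7.

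S100A6, S100A11, S100A10 and S100A16 made up most of the S100 signal of SKHEP1, and all were at least 4-fold lower in HepG2. S100A6, or calcyclin, is linked to proliferation and binds CACYBP and annexin A11. The gene (ENSG00000197956.5) had 17702 counts in SKHEP1 and 543 in HepG2, or 876 (interval 863 to 889) and 24.5 CPM (22.5 to 26.6). This was a 35.8-fold difference (32.9 to 39.1), and the TPM rank of S100A6 was 39 in SKHEP1 and 2052 in HepG2. S100A11, a partner of annexins A1 and A2, had 7950 and 166 counts, or 393 and 7.48 CPM, and was 52.6-fold higher in SKHEP1 (45.1 to 61.7). It was the S100 gene with the largest ratio in that direction. S100A10, the p11 subunit of the annexin A2 complex, which has lost the ability to bind calcium, had 5698 and 469 counts and was 13.3-fold higher (12.1 to 14.7). S100A16, a widely expressed S100 protein, had 6004 and 1159 counts and was 5.69-fold higher (5.34 to 6.06). In HepG2 none of these 4 genes was silent.

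2 less abundant S100 genes were also higher in SKHEP1. S100A3, a cysteine-rich protein of the hair cuticle, had 260 counts in SKHEP1 and 39 in HepG2, and was 7.32-fold higher (5.21 to 10.5). S100A3 overlaps S100A4 on the same strand in the annotation, so reads of this pair may be shared out between them. S100A2, an S100 protein of epithelial basal cells and a known p53 target, had 105 and 28 counts. Its ratio of 4.12 (2.69 to 6.49) is not clear of the 4-fold limit, and with TPM it was 3.74.

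HepG2 had S100A1 and S100P as its leading S100 genes, and both were close to absent from SKHEP1. S100A1, which regulates calcium handling in heart muscle, had 4 counts in SKHEP1 and 1256 in HepG2, or 0.198 and 56.6 CPM. It was 286-fold higher in HepG2 (111 to 1051). S100A1 overlaps S100A13 on the opposite strand, and the strand setting used in counting is not given in the sources used here. S100A13 had more reads in SKHEP1 than in HepG2, the direction opposite to S100A1. S100P (ENSG00000163993.6), first found in placenta and known from several carcinomas, lies on chromosome 4, outside the S100 cluster. It had 0 counts in SKHEP1 and 990 in HepG2, 44.6 CPM. With the SKHEP1 count set to the floor of 3 it was 301-fold higher in HepG2, which is not a strict lower bound. S100A14, an epithelial S100 protein, had 1 count in SKHEP1 and 25 in HepG2. The ratio was 22.8, with a wide interval from 3.73 to 935. With the SKHEP1 count set to the floor of 3, as in the calls, it was 7.59. It stayed near 1 CPM even in HepG2.

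S100A13 and S100A4 lay within 4-fold. S100A13, which takes part in the release of FGF1 from cells by a route outside the secretory pathway, had 904 and 546 counts and was 1.82-fold higher in SKHEP1 (1.63 to 2.03). S100A4, or metastasin, binds nonmuscle myosin and is widely used as a marker of fibroblasts and mesenchymal cells. It had 32 counts in SKHEP1 against 102 in HepG2, and was 2.90-fold higher in HepG2 (1.93 to 4.46). S100A4 stood in the list of 16 mesenchymal markers, of which 13 passed the count minimum. Of these 13, SKHEP1 led by at least 4-fold for 7 and HepG2 for none, against 16.5% and 13.0% of all genes. All 7 passed the count minimum through SKHEP1 alone, which favours a difference in that direction. The 6 markers that reached the minimum in both lines, S100A4 among them, all lay within 4-fold. S100A4 was 1 of 4 on the list with a higher level in HepG2, beside TAGLN (3.22-fold), PDGFRB (1.62-fold) and ACTA2 (1.33-fold), and all 4 lay within 4-fold. Its deposited TPM was 6.15 in SKHEP1 and 17.0 in HepG2, far from the 2957 TPM of its neighbour S100A6 in SKHEP1.

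The remaining 9 S100 genes were under 10 counts in both lines. S100A8 and S100A12 had 0 counts in both, and S100A9 had 0 in SKHEP1 and 3 in HepG2. S100A5, S100A7A, S100B and S100G were also at 0 in both lines. S100A7, or psoriasin, had 1 count in SKHEP1, and S100Z had 5. At a count of 0, the upper end of the exact 95% interval was 0.183 CPM in SKHEP1 and 0.166 CPM in HepG2.

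Summed over the family, the annexins reached 6825 TPM in SKHEP1 and 1007 TPM in HepG2, a ratio of 6.78. The S100 genes reached 6169 and 744 TPM, a ratio of 8.30. In SKHEP1, ANXA2 alone gave 68.2% of the annexin TPM, ANXA1 14.8% and ANXA5 9.62%. In HepG2 the annexin TPM was spread more evenly, with 30.3% from ANXA5, 21.0% from ANXA2, 18.9% from ANXA4 and 10.7% from ANXA7. In SKHEP1, S100A6 gave 47.9% of the S100 TPM, S100A11 25.3% and S100A10 14.8%. In HepG2, S100A1 gave 29.5% and S100P 19.6%, and both together were at under 1 TPM in SKHEP1. Without ANXA2 the annexin ratio was 2.73, and without S100A6 the S100 ratio was 4.84. The annexin sum therefore depended mainly on ANXA2, while several S100 genes carried the S100 sum.

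**Figure D3:**
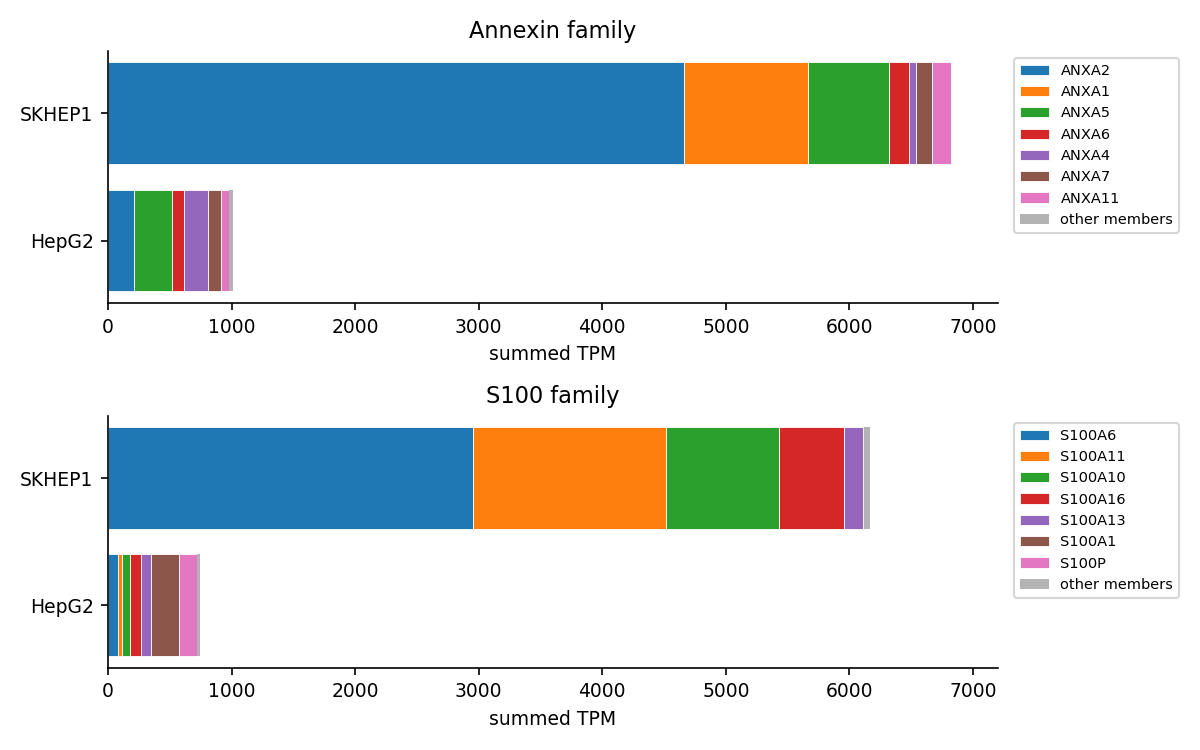
Summed TPM of the annexin family (top) and the S100 family (bottom) in each line, 1 library per line, with each bar divided by member. The annexin bars end at 6825 TPM in SKHEP1 and 1007 in HepG2, and the S100 bars at 6169 and 744, with ANXA2 and S100A6 as the widest parts in SKHEP1.

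The genes of known S100 and annexin partners were set side by side by TPM within each line. S100A10 was at 913 TPM and ANXA2 at 4658 TPM in SKHEP1, so that ANXA2 was 5.10 times as high. In HepG2 they were at 66.4 and 212 TPM, with ANXA2 3.19 times as high. The ANXA2 values rest on isoform-weighted lengths of 1389 bases in SKHEP1 and 823 in HepG2, so the change in this ratio depends on them. By CPM, ANXA2 differed 40.5-fold between lines and S100A10 13.3-fold. Both partners were thus lower in HepG2, and ANXA2 exceeded S100A10 in both lines. S100A11 was at 1561 TPM and ANXA1 at 1009 TPM in SKHEP1, whereas in HepG2 S100A11 was at 28.9 TPM and ANXA1 at 0.20. S100A6 was at 2957 TPM against 155 TPM for ANXA11 in SKHEP1, a ratio of 19.1, and at 80.0 against 62.7 TPM in HepG2, a ratio of 1.28. The S100A8 and S100A9 pair was near 0 in both lines. S100A1 was at 220 TPM in HepG2 while S100B, with which it can form dimers, was at 0.

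The S100 genes of chromosome 1 did not move as a block. In RefSeq gene order (assembly GRCh38.p14), S100A10 and S100A11 come first, then 47 other protein-coding genes, then 14 S100 genes from S100A9 to S100A1. S100A10 and S100A11 were both higher in SKHEP1. Of the 47 genes between, which include the filaggrin-like, late cornified envelope and small proline-rich genes, 43 were matched and 6 reached 10 counts, all 6 with 0 counts in HepG2. These 6 passed the minimum through SKHEP1 alone, which favours a difference in that direction; among all genes 16.5% passed 4-fold toward SKHEP1. FLG, or filaggrin, a fused-type S100 gene, had 1969 counts in SKHEP1. FLG overlaps the antisense gene FLG-AS1, which had 71 counts in SKHEP1, so its value is uncertain. The other 5 had between 11 and 31 counts in SKHEP1. From S100A9 to S100A7 the genes were at or near 0 in both lines. S100A6, S100A3, S100A2 and S100A16 were then higher in SKHEP1, with S100A5 and S100A4 between them at 0 counts and higher in HepG2, respectively. S100A14 and S100A1, at the far end, were higher in HepG2.

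Next to S100A1, the 10 neighbouring genes outside the cluster showed no such gaps. Of these, 9 reached 10 counts and all 9 lay within 4-fold, with a median log2 ratio of 0.79. CHTOP, the next gene after S100A1, had 1763 counts in SKHEP1 and 1120 in HepG2. On the other side, THEM4, the gene just before S100A10, had 631 and 427 counts.

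**Figure D4:**
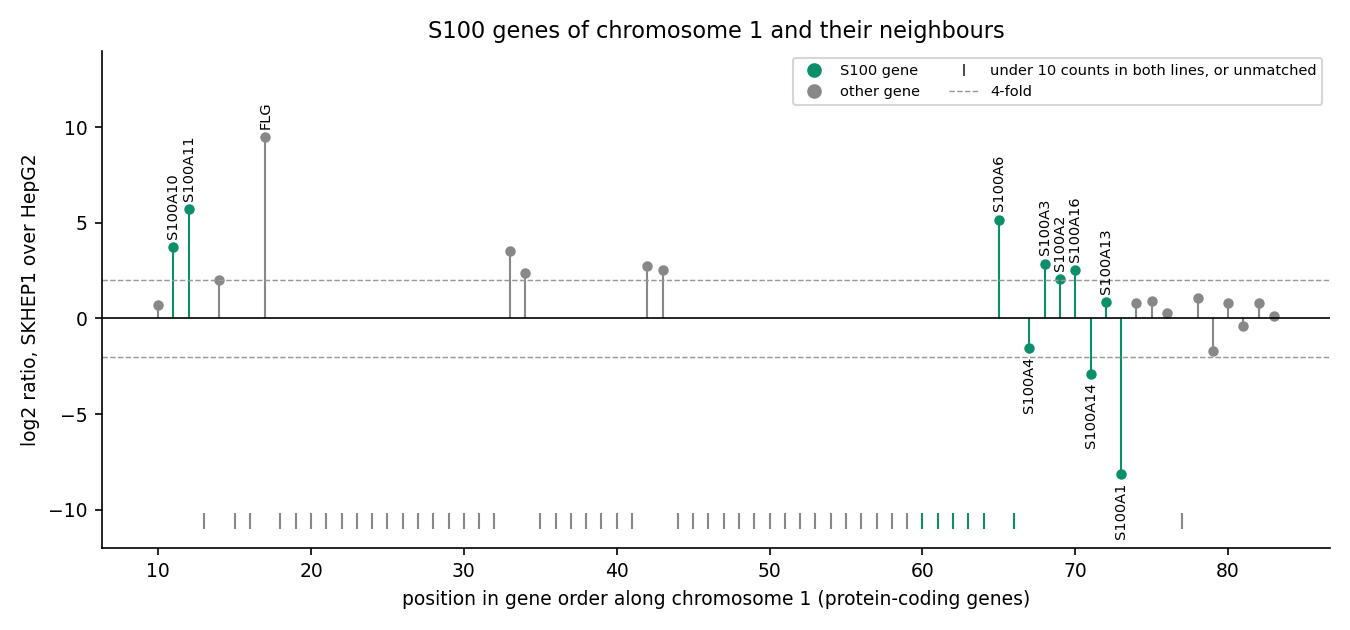
Log2 ratio, SKHEP1 over HepG2, of the S100 genes of chromosome 1 (green) and their neighbours (grey) by position in gene order, from the gene just before S100A10 on, with counts under 3 set to 3. Ticks at the bottom mark genes under 10 counts in both lines or unmatched, and dashed lines mark 4-fold. S100A6 and S100A3, above 4-fold toward SKHEP1, stand near S100A5 at 0 counts, S100A14 and S100A1 point toward HepG2, and the 9 measured neighbours after S100A1 all lie inside the dashed lines.

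Promoters of the members are shown because their CpG content, which the choice of members did not use, differed between expression classes. CpG by class was not computed over all genes. Class also went with family: 6 of the 8 members within 4-fold were annexins, and 3 of the 4 higher in HepG2 were S100 genes. Of the 12 members under 10 counts in both lines, 9 were S100 genes. RefSeq promoter windows of 300 bases, from 250 bases before to 50 bases after a start site (GRCh38.p14), matched 29 of the 32 members, 8 of them with several windows and 40 windows in all. CpG is a cytosine followed by a guanine, and promoters rich in it are typical of widely expressed genes. The 6 windows below are of ANXA5, present in both lines, of ANXA2, S100A6 and ANXA1, higher in SKHEP1, and of S100A1 and S100P, higher in HepG2. Capitals mark CpG, and each sequence is written 5′ to 3′ on the strand of the gene. The windows are chr4:121696931-121697230 (minus) for ANXA5, chr15:60397937-60398236 (minus) for ANXA2, chr1:153535942-153536241 (minus) for S100A6, chr9:73151615-73151914 (plus) for ANXA1, chr1:153628184-153628483 (plus) for S100A1 and chr4:6693628-6693927 (plus) for S100P.
ANXA5: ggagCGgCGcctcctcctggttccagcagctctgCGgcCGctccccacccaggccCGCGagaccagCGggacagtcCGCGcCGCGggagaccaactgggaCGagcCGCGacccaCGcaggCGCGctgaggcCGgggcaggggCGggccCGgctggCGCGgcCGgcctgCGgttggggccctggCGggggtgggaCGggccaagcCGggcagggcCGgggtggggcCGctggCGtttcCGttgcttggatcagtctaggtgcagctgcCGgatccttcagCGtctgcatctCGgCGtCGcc
ANXA2: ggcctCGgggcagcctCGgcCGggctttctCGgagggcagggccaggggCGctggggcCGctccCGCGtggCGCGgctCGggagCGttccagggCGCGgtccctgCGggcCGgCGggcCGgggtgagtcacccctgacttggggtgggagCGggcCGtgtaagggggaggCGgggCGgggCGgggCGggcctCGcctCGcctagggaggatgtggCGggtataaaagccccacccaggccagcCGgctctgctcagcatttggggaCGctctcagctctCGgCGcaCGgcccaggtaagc
S100A6: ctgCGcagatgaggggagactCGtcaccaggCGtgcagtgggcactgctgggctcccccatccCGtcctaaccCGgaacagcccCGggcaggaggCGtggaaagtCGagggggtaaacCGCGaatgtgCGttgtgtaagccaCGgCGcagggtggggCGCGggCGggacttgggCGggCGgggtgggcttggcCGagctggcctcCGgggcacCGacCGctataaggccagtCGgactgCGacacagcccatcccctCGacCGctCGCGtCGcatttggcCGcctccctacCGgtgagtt
ANXA1: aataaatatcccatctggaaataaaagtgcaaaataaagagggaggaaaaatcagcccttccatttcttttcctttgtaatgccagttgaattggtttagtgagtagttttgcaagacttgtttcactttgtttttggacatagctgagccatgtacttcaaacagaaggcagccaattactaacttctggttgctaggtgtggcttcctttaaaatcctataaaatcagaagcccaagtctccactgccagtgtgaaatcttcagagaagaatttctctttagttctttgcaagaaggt
S100A1: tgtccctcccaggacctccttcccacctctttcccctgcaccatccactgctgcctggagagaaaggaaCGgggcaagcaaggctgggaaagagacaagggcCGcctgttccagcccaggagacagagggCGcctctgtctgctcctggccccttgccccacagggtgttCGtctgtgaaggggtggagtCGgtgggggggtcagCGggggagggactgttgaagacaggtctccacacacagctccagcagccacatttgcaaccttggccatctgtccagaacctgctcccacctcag
S100P: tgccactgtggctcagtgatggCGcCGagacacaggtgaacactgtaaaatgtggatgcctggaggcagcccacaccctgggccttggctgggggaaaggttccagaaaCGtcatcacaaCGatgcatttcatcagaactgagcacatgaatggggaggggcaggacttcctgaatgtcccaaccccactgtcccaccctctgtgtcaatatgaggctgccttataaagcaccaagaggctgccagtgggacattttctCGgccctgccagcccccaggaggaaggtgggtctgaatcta

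The ANXA5 window held 36 CpG, the ANXA2 window 32 and the S100A6 window 31, whereas the ANXA1 window held 0, S100A1 6 and S100P 5. The median over all 35116 windows was 14. All 8 members within 4-fold had a window with at least 8 CpG, and 7 of them one with at least 19. The 12 windows of the 9 matched members under 10 counts in both lines held 0 to 6 CpG, and the windows of the 4 members higher in HepG2 held 5 or 6. The members higher in SKHEP1 fell on both sides. S100A10, ANXA2, S100A6 and S100A11 held 22 to 32, and ANXA1, S100A2, S100A3 and S100A16 held 0 to 8. S100A10, ANXA2, S100A6 and S100A11 were detected in HepG2 at 166 counts or more. Of those with 0 to 8 CpG, S100A16 had 1159 counts in HepG2, S100A3 39, S100A2 28 and ANXA1 2. These are descriptions of reference sequence beside expression, since no methylation or binding was measured here.

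**Figure D5:**
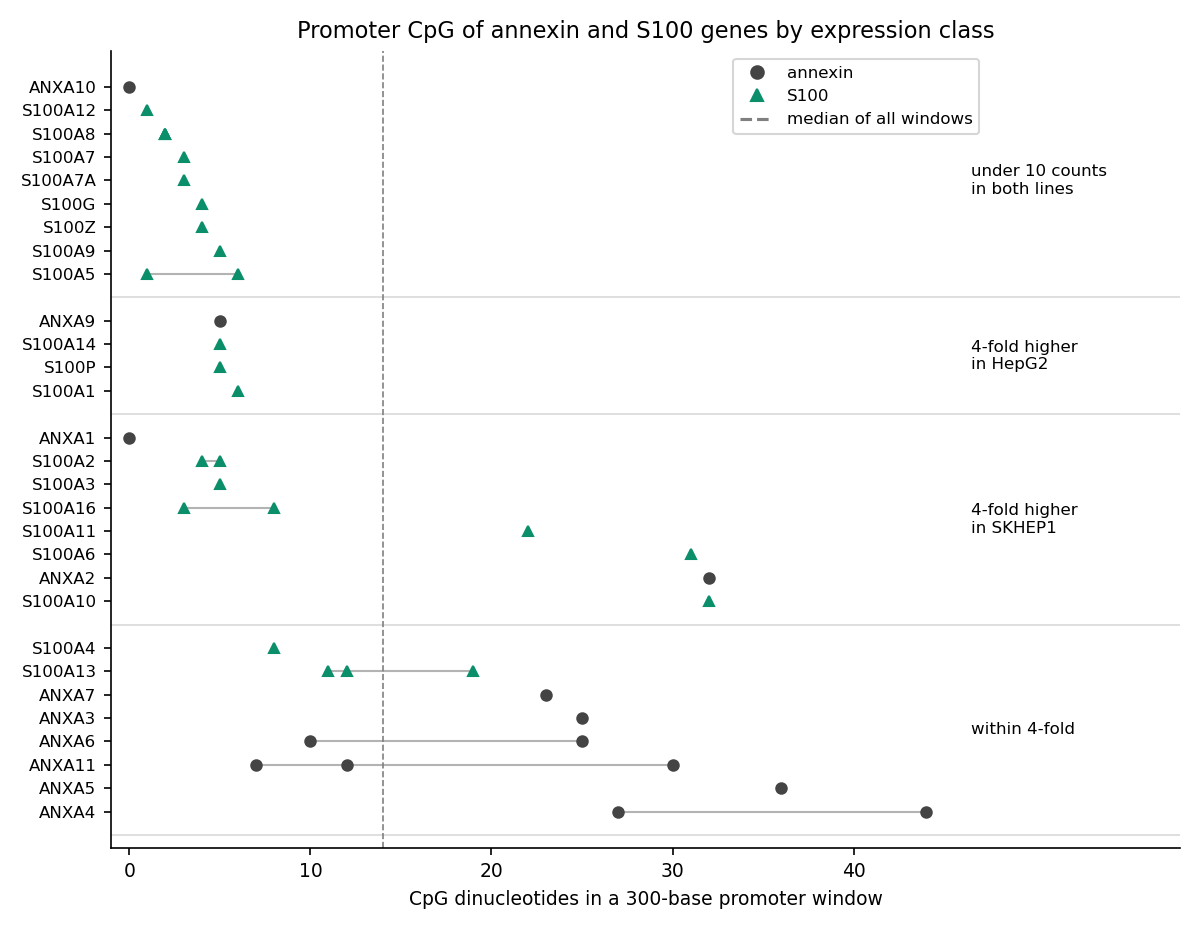
CpG dinucleotides in each 300-base RefSeq promoter window (x axis) of the 29 matched members, ordered by expression class, with annexins as circles, S100 genes as triangles and a line joining windows of 1 gene. The dashed line is the median of all windows, 14. Members under 10 counts and members higher in HepG2 lie at 6 or fewer, while members within 4-fold reach up to 44.

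Short motifs were searched on both strands of the windows. The TATA motif TATAAA was found in 37.5% of the 40 member windows and in 11.5% of all windows. Members with it included ANXA10, S100A7, S100A7A, S100A8, S100A9, S100A12, S100G and S100Z, all under 10 counts in both lines. The others with it were ANXA1, ANXA2, ANXA11, S100A4, S100A13 and S100P. The motif began 31 bases before the start site in both ANXA1 and ANXA2, and 28 bases before it in S100P. The GC box GGGCGG was found in 35.0% of member windows and 45.0% of all windows, with 3 copies each in ANXA2 and S100A6. The AP-1 motif TGANTCA was found in 12.5% of member windows and 7.71% of all windows, in ANXA2, S100A2, S100A3, S100A5 and S100A12. The E-box CANNTG was found in 80.0% against 68.7%. An NF-kB-like motif was found in 3 of the 40 member windows, in ANXA4 and ANXA11, and in 1.91% of all windows. CANNTG is short and no motif here contains another. Windows of 1 gene can overlap, so they are not independent, and a match is not a binding site.

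Genes for binding partners of annexins and S100 proteins were mostly expressed in both lines, with large gaps for a few. Of 24 listed genes, 21 reached 10 counts; SKHEP1 led by at least 4-fold for 6 and HepG2 for 2, against 16.5% and 13.0% of all genes, and 13 differed by less. Their median log2 ratio was 0.60. PLAT, the tissue plasminogen activator that docks on the annexin A2 complex, had 30647 counts in SKHEP1 against 26 in HepG2, and was 1294-fold higher (883 to 1981). SRI, or sorcin, an EF-hand partner of ANXA7, had 2666 counts in SKHEP1 against 1 in HepG2. The ratio was 2927 (525 to 115654). AHNAK and AHNAK2 encode giant scaffold proteins, the former bound by the S100A10 and annexin A2 complex, and were 12.9-fold (12.5 to 13.4) and 437-fold (276 to 737) higher in SKHEP1. MYH10, a nonmuscle myosin heavy chain gene, had 844 counts in SKHEP1 against 6606 in HepG2 and was 7.13-fold higher there (6.64 to 7.67). MYH9, another such gene of the list, went the other way. It had 55995 counts in SKHEP1 against 14199 in HepG2 and was 4.33-fold higher in SKHEP1 (4.25 to 4.41). PLG, the plasminogen gene, had 0 counts in SKHEP1 and 37 in HepG2. SRI and PLG passed the count minimum through 1 line only, which favours a difference. CACYBP, a target of S100A6, had 3078 and 3103 counts and was 1.09-fold higher in SKHEP1.

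Membrane repair genes, a process in which annexins A1, A2, A5 and A6 take part, are given for comparison. Of 21 listed genes, 19 reached 10 counts; SKHEP1 led by at least 4-fold for 5 and HepG2 for none, and 14 differed by less. Among all genes 16.5% passed 4-fold toward SKHEP1 and 13.0% toward HepG2, or 29.5% in either direction. The share of this list in either direction was not above that of all genes, but all 5 were higher in SKHEP1. The median log2 ratio of the 19 genes was 0.56. DYSF, or dysferlin, the calcium sensor of muscle membrane repair, had 2889 counts in SKHEP1 and 4 in HepG2, and its paralog MYOF, or myoferlin, had 25360 and 30. CAPN2, the large subunit of m-calpain, was 42.3-fold higher in SKHEP1 (38.8 to 46.2), and the endocytic ATPase gene EHD2 had 1770 counts against 1. DYSF and EHD2 passed the count minimum through SKHEP1 alone, which favours a difference. Of the ESCRT genes in the list, TSG101 and CHMP4B lay within 4-fold. SYT7, a synaptotagmin, and CHMP4A, an ESCRT gene, were 2.93-fold and 2.45-fold higher in HepG2.

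Receptors of secreted S100 proteins and annexins differed widely in level. Of 12 listed genes, 6 were under 10 counts in both lines. Of the 6 others, 1 was at least 4-fold higher in each direction, against 16.5% of all genes toward SKHEP1 and 13.0% toward HepG2. BSG had 5458 counts in SKHEP1 and 9254 in HepG2, CD68 2576 and 1367, and SCARB1 1672 and 5127, all within 4-fold. AGER, the receptor for advanced glycation end products and the best known S100 receptor, had 36 counts in SKHEP1 and 26 in HepG2. ALCAM, an adhesion molecule reported as a receptor of S100B, was 11.6-fold higher in SKHEP1, and CD36, a scavenger receptor, had 6 counts in SKHEP1 and 181 in HepG2. CD36 passed the count minimum through HepG2 alone, which favours a difference. Of 7 fused-type S100 genes, FLG and TCHH reached 10 counts, both in SKHEP1 and with 0 counts in HepG2.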

How the data were processed

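Stranded mRNA libraries, 1 per line, were made from column-purified RNA, per the labels' protocols. Per the submitters' processing notes, cutadapt, STAR, RSEM, DESeq2 and the build hg19 were used, with no role or order stated; versions, the annotation and the strand setting are not given. The deposited tables hold RSEM expected counts, TPM, FPKM and isoform-weighted lengths per the file headers. Expected counts were rounded and scaled to CPM of the TMM effective library size (factors 1.01 for SKHEP1 and 0.987 for HepG2) with edgeR 4.0.16 in R 4.3.3. The compared genes had at least 10 expected counts in either library, and counts under 3 were set to 3 for calls at 4-fold. Ratios of genes with 1 to 3 counts are raw, with intervals.

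Intervals are exact Poisson and conditional Clopper-Pearson at 95%. No difference between lines was tested, since no line has a replicate. The comparison script was checked on simulated counts. Alternatives were other scalings (total counts, DESeq2 1.42.0), units, minimums, limits and zero handling. The members and lists were chosen with earlier results of these data known. All members were named, with, from other lists, up to 4 genes of largest absolute log2 ratio that reached 100 counts. That rule was not applied to the hepatocyte, mesenchymal, epithelial and housekeeping lists, and the last 2 are not described here. KDR, ERG, CLDN5, CDH5, SOX18, LYVE1, TAGLN, PDGFRB, ACTA2, MYH9, MYH10, PLG, SYT7, CHMP4A, PLSCR4, ANO5, XKR9, CACYBP, TSG101, CHMP4B, AGER, TCHH, CHTOP, THEM4, AAK1, ANO6, PLSCR1, XKR8, CALR, CANX and HSPA5 were named outside that rule after their values were seen. Overlaps are from GENCODE 29, which matched 31 members; hg19 coordinates are not used here. BSG and CPNE4 were also named outside the rule for listed genes, after their values were seen. Analyses used Python 3.11.15, matplotlib 3.10.9, scipy 1.17.1, pandas 2.3.3 and numpy 2.4.6.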

Additional observations from a re-analysis of the deposited data

How the results depend on the processing

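No direction reversed among the 20 members under the alternatives run, and of the 103 recomputed log2 ratios that a setting changed at all, 97 stayed inside the member's counting interval or, for members under 3 counts in 1 line, were no more than 1 log2 unit nearer to 0. With a 2-fold limit 4 annexins were higher in SKHEP1 and 3 in HepG2, and 3859 and 3614 of all genes. With an 8-fold limit 3 S100 genes were higher in SKHEP1, and 1258 of all genes in HepG2. With 10 counts required in both libraries, chosen after seeing the data, 1 annexin was higher in SKHEP1 and 0 in HepG2, 0 S100 genes were higher in HepG2, and 744 and 784 of all genes were higher in SKHEP1 and HepG2. That minimum removes genes near 0 in 1 line by construction. The median log2 ratio with a minimum of 1 count was 0.14 for annexins and 0.87 for S100 genes, and the mean log2 ratio was 1.21 and 0.19, respectively. The summed TPM ratio without the leading member was 2.73 for annexins and 4.84 for S100 genes. The log2 ratio of ANXA2 was 4.46 from TPM. S100A2 lost its 4-fold call with TPM, with FPKM, with a prior count of 2 and by its lower counting bound, and S100A14 by its lower bound. No paired analysis was possible because each line has 1 library.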

Other observations

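Other calcium-binding genes differed in both directions. Of 36 listed EF-hand sensors outside the S100 family, 23 reached 10 counts; SKHEP1 led by at least 4-fold for 6 and HepG2 for 4, against 16.5% and 13.0% of all genes, and 13 differed by less. Their median log2 ratio was 0.17. VSNL1, a neuronal calcium sensor, had 0 counts in SKHEP1 and 1361 in HepG2, and SCGN, or secretagogin, an EF-hand protein of neuroendocrine cells, had 0 and 473. SRI and CIB2, a calcium- and integrin-binding protein, were higher in SKHEP1, CIB2 by 10.0-fold (6.13 to 17.3). CIB2 overlaps IDH3A on the opposite strand and is uncertain. VSNL1, SCGN and SRI were among the genes that passed the count minimum through 1 line only, which favours a difference. Of 12 calcium binders of the endoplasmic reticulum and secretory pathway, 11 lay within 4-fold, among them CALR, CANX and HSPA5. Among all genes 29.5% passed 4-fold in either direction. RCN1, or reticulocalbin 1, was 9.09-fold higher in SKHEP1 (8.53 to 9.69).

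Copines, which like annexins bind phospholipids when calcium rises, also differed in which members were used. Of 9 copine genes, 6 reached 10 counts. SKHEP1 led by at least 4-fold for 4 and HepG2 for 1, against 16.5% and 13.0% of all genes. CPNE7 and CPNE4, the latter with 11 counts in SKHEP1, reached the minimum through SKHEP1 alone, which favours a difference. CPNE7 had 436 counts in SKHEP1 and 0 in HepG2, CPNE8 was 12.3-fold (9.56 to 16.1) and CPNE2 5.22-fold higher in SKHEP1, whereas CPNE1 was 7.44-fold higher in HepG2 (6.97 to 7.95). Summed over the 9 genes, copines were at 329 CPM in SKHEP1 and 518 CPM in HepG2. Of 15 genes that control phosphatidylserine exposure, the lipid that annexin A5 binds, 13 reached 10 counts and 8 lay within 4-fold. SKHEP1 led by at least 4-fold for 3 and HepG2 for 2, against 16.5% and 13.0% of all genes. Among the scramblase genes and their relatives, ANO6, XKR8 and PLSCR1 differed by at most 1.21-fold. The read-through gene TMEM256-PLSCR3 was 7.02-fold (6.03 to 8.21) and PLSCR4 3.23-fold higher in SKHEP1, ANO5 had 20 counts in SKHEP1 and 1 in HepG2, and XKR9 had 0 and 12. The flippase genes ATP8A1 and ATP11A were 29.8-fold (11.4 to 111) and 4.43-fold higher in HepG2. ANO5 and ATP8A1 were among the genes that passed the count minimum through 1 line only, which favours a difference.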
